A study of Mus musculus with 10 samples.

Results

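Wnt ligands and secreted Wnt modulators were compared between the pressure-overloaded and the control left ventricle (LV) of young mice. The 10 genes were taken by gene name from gene tables that each list 55401 genes: the frizzled-related proteins Sfrp1, Sfrp2, Sfrp5 and Frzb, the dickkopf-family protein Dkk3, the Wnt inhibitory factor Wif1, the ligands Wnt5a, Wnt5b and Wnt11, and Axin2, which is not secreted and was included as a feedback target of the pathway. All animals were wild-type (WT) C57BL/6 mice killed at 4 weeks of age. In the nAAC group, the ascending aorta had been constricted surgically in newborn pups (neonatal ascending aorta constriction), and the sham group had surgery without the constriction. Pups of both groups stayed with their mothers and were nursed. RNA of the LV was sequenced from 5 nAAC and 5 sham mice, with 1 library per mouse. The paper reports that the WT mice of its in vivo experiments were bred from carriers of an AHR knockout allele. Whether the mice sequenced were among them is not stated in the text used here. The paper also reports that males and females were placed in the groups at random. Xist, a transcript of females given below, was uneven between the groups in these libraries.

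Wnt ligands are secreted lipid-modified glycoproteins that bind frizzled receptors. In the canonical branch, binding together with LRP5 or LRP6 stabilizes beta-catenin, which enters the nucleus and acts with TCF/LEF factors; in the noncanonical branches, Wnt5a, Wnt5b and Wnt11 signal to calcium, to the cytoskeleton and to planar cell polarity. Frizzled-related proteins carry a frizzled-like cysteine-rich domain and bind Wnts outside the cell, Wif1 binds Wnts through a different domain, and Dkk3 is a divergent dickkopf protein whose place in the pathway is unsettled. In the heart, these pathways act during development and are known to be active again after injury, where fibroblasts are a main source of several of the secreted modulators.

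Promoter windows of 300 bases, 250 before and 50 after the annotated start, were listed by RefSeq for 7 of the 10 genes (GRCm38.p6). Windows of 5 genes are printed here 5′ to 3′ on the strand of the gene: Frzb and Sfrp2, which were higher in nAAC, Wif1 and Sfrp5, which were lower, and Axin2, the feedback target. Capitals mark matches, on either strand, to the TCF/LEF core CTTTGA, to the core GCGTG of the dioxin response element, which AHR binds, and to the TATA box TATAAA.
Frzb: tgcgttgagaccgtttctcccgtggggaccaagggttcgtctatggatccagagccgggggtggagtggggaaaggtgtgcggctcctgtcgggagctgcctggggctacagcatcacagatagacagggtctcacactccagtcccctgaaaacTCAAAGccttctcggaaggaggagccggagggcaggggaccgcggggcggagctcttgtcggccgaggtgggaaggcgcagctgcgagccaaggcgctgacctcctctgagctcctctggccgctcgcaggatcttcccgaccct
Sfrp2: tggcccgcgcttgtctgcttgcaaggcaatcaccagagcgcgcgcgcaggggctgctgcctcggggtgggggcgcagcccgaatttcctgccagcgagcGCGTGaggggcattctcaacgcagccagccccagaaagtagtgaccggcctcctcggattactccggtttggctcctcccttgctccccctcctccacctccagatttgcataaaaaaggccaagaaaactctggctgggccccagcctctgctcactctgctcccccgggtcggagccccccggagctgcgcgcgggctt
Wif1: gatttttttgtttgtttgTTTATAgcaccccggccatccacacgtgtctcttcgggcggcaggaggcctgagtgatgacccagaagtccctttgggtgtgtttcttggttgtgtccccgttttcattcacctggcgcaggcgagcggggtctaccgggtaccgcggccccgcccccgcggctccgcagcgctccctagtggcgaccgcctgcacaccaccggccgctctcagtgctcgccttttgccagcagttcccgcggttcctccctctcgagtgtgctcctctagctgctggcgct
Sfrp5: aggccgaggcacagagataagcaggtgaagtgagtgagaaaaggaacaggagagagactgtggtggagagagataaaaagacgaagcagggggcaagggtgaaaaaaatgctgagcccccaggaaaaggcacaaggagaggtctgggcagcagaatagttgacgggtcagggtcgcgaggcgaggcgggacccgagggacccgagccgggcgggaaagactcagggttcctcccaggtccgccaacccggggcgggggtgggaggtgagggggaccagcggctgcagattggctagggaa
Axin2: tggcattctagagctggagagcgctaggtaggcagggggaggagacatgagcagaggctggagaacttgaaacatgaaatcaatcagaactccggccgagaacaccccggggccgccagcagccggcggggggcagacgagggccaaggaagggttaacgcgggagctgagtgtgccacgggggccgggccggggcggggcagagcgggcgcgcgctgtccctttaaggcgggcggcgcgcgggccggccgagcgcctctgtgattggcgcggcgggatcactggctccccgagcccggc
The windows lie at chr2:80447347-80447646 on the minus strand for Frzb, chr3:83766071-83766370 on the plus strand for Sfrp2, chr10:121033754-121034053 on the plus strand for Wif1, chr19:42202203-42202502 on the minus strand for Sfrp5 and chr11:108920099-108920398 on the plus strand for Axin2. Frzb held 1 TCF/LEF core, on the opposite strand and 95 bases before the start listed by RefSeq. In the coordinates of the expression values, the 5′ end of Frzb is at 80447625, upstream of that start. The match therefore lies within the gene as quantified. Sfrp2 held 1 dioxin response element core, on the strand of the gene and 151 bases before the start. Wif1 held 1 TATA box match, on the opposite strand and 232 bases before the start. No match to the 3 motifs was found in the Sfrp5 and Axin2 windows. Among all 32851 mouse windows of this length, 16.0% held the TCF/LEF core, 32.4% the dioxin response element core and 13.6% the TATA box. The 5 windows printed held 15 to 31 CG dinucleotides each, above the median of 7 over all windows. The share of all windows that held fewer ran from 65.4% for Sfrp5 to 89.4% for Axin2. Wnt5b and Wnt11 have 3 and 2 listed starts, and the gene tables do not tell which was used, so their windows are described and not printed. For Wnt5b, chr6:119544298-119544597 held 2 dioxin response element cores, chr6:119467162-119467461 held 1, and chr6:119449337-119449636 held 1 TCF/LEF core, 71 bases before the start. For Wnt11, chr7:98834862-98835161 held 1 TCF/LEF core and 1 TATA box, 50 and 29 bases before the start, and chr7:98838595-98838894 held 1 dioxin response element core. A match describes letters only, and neither AHR nor TCF/LEF binding was measured in these samples.

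The depth estimated from the ratio of FPKM, a level corrected for transcript length and library depth, to the coverage was 4.86 to 6.82 gigabases in nAAC and 5.06 to 5.24 in sham. Mitochondrial genes took 32.8 to 39.9% of the TPM, a share of transcripts scaled to a common sum, in nAAC and 33.7 to 49.8% in sham. Over the 11867 genes tested, sham replicate 4 stood apart: its values deviated from the mean of the other sham libraries with an SD of 0.51 on the log2 scale, where this SD was 0.23 to 0.35 in the other 9 libraries. Its deviation also fell with transcript length (Spearman's rho across genes, -0.66). Xist, expressed from the inactive X chromosome of females, was 14.8 to 17.9 FPKM in 4 nAAC libraries, 10.6 and 3.70 in 2 sham libraries, and at most 0.023 in the others. By this measure sex was not balanced between the groups. The median gene tested was higher in nAAC by 0.22 on the log2(FPKM + 1) scale, and each change below is given without subtracting this shift. With median-ratio scaling the median was -0.00077, and the genes differentially expressed by the thresholds used here went from 595 higher and 106 lower to 371 higher and 206 lower.

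A gene was tested when its mean over the 10 libraries was at least 1 FPKM, with limma on log2(FPKM + 1) and Benjamini-Hochberg adjustment over all 11867 genes. It passed at an adjusted p below 0.05 and was called a differentially expressed gene (DEG) when the log2 fold change (FC, nAAC minus sham) also exceeded 1 in size. Sfrp1, Sfrp2, Frzb, Dkk3 and Wnt5b rose and Wif1 fell in nAAC, and Sfrp2, Frzb and Dkk3 were DEGs. Of the 10 genes, 9 were tested and Sfrp5 lay under the filter. These 6 that passed stand beside 31.7% of all genes tested. The 5 that rose stand beside 27.1% that passed upward, the 1 that fell beside 4.6% that passed downward, and the 3 DEGs, all higher in nAAC, beside 5.91% of genes called in either direction, 5.01% upward and 0.893% downward. Of the 9, the values of the 2 groups did not overlap for the 5 that rose, where 18.9% of all genes tested had each nAAC mouse above each sham mouse, and for Wif1, where 3.46% had the reverse (22.3% in either direction). A gene low in 1 group can reach the filter only through the group where it is high: Wif1 did so through sham, and Wnt5b and Axin2, with sham means of 0.987 and 0.818 FPKM, through nAAC. The median log2 FC of the 9 was 0.82.

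**Figure D1:**
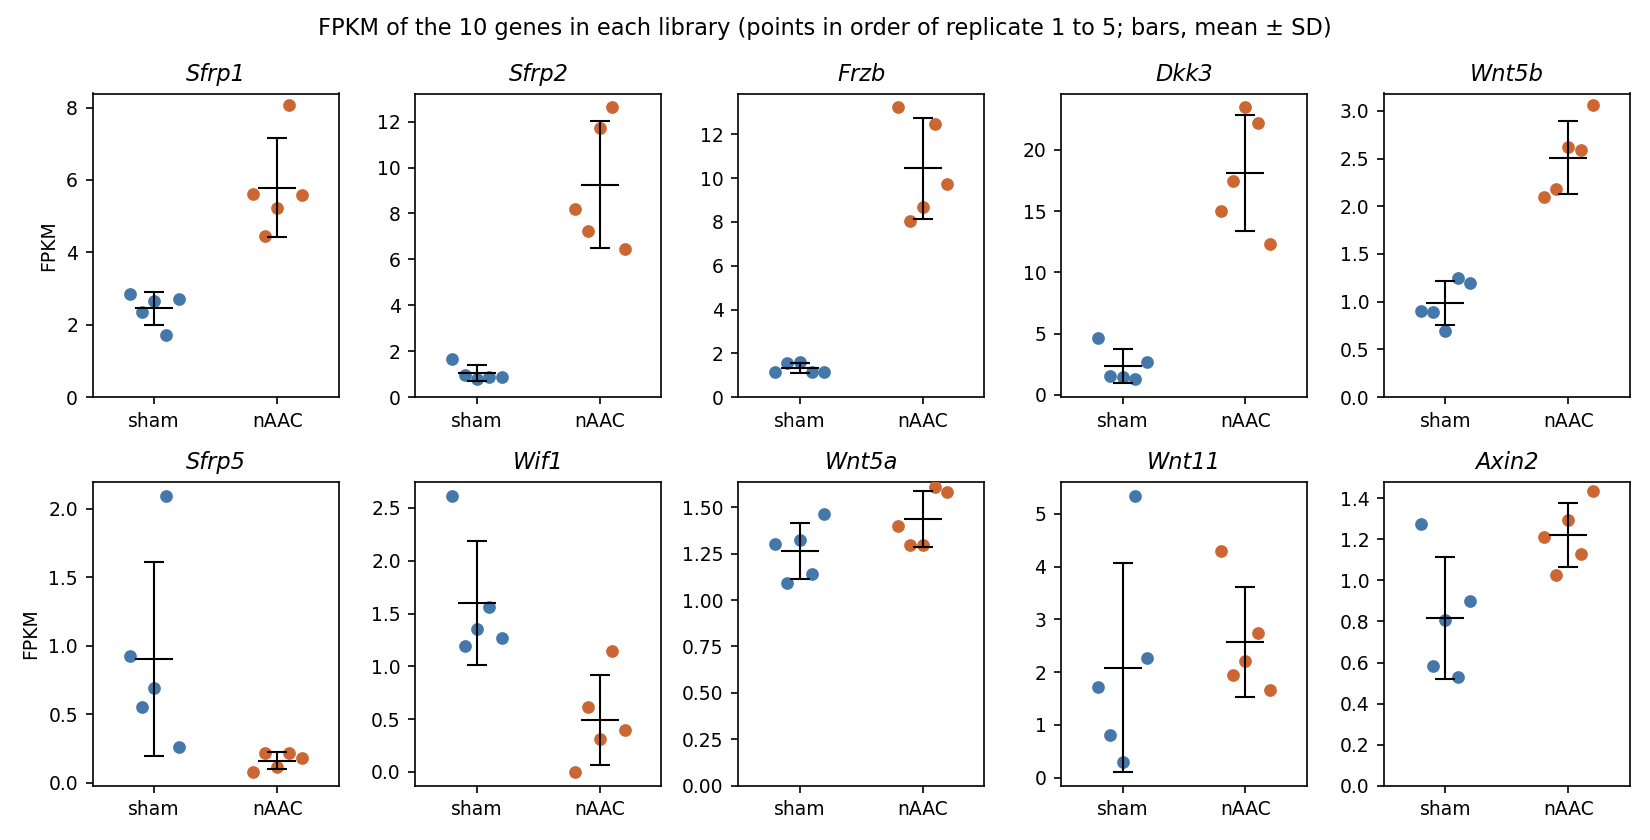
FPKM of each of the 10 genes in the 5 nAAC and 5 sham libraries. Each point is 1 mouse, in order of replicate 1 to 5, and the bars are the group mean ± SD. The nAAC points of Sfrp2, Frzb and Dkk3 lie far above the sham points, those of Wif1 and Sfrp5 lie below them, and the groups overlap for Wnt5a, Wnt11 and Axin2.

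Among the frizzled-related proteins, Sfrp2 (ENSMUSG00000027996, chr3:83766321-83774316, plus strand), which binds Wnts and has also been linked to collagen processing, had the largest ratio of group means. Sfrp2 was 8.20, 7.22, 11.7, 12.6 and 6.47 FPKM in nAAC replicates 1 to 5. The sham values were 1.67, 0.982, 0.804, 0.889 and 0.899 FPKM. The lowest nAAC mouse was therefore well above the highest sham mouse, replicate 1. The mean was 9.25 ± 2.76 FPKM in nAAC against 1.05 ± 0.351 in sham (SD, n = 5 each), 8.83 times higher, with a log2 FC of 2.30 (SE 0.18, limma adjusted p = 1.41e-06).

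Frzb, also called Sfrp3 (ENSMUSG00000027004, chr2:80411970-80447625, minus strand), is a soluble Wnt-binding protein first known from cartilage. Frzb was 13.3, 8.07, 8.66, 12.5 and 9.75 FPKM in nAAC and 1.17, 1.57, 1.59, 1.16 and 1.16 FPKM in sham. The groups were far apart, and the sham values were close to each other. The means were 10.4 ± 2.31 and 1.33 ± 0.229 FPKM (SD, n = 5 each), 7.84 times higher in nAAC, with a log2 FC of 2.28 (SE 0.14, limma adjusted p = 2.44e-07).

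Sfrp1 (ENSMUSG00000031548, chr8:23411502-23449632, plus strand), the founding member of the family, was 5.62, 4.44, 5.22, 8.07 and 5.57 FPKM in nAAC. The 5 controls had 2.86, 2.34, 2.67, 1.72 and 2.72 FPKM. The groups did not overlap, but the difference was smaller than for Sfrp2 or Frzb. The means were 5.79 ± 1.36 and 2.46 ± 0.456 FPKM (SD, n = 5 each), 2.35 times higher in nAAC, and the log2 FC of 0.96 (SE 0.15, limma adjusted p = 3.22e-04) lay just under the DEG threshold.

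Sfrp5 (ENSMUSG00000018822, chr19:42197971-42202252, minus strand), a frizzled-related protein known as an antagonist of Wnt5a in fat tissue, was below 1 FPKM in 9 of the 10 libraries. Sfrp5 was 0.0792, 0.218, 0.116, 0.214 and 0.181 FPKM in nAAC. In sham it was 0.927, 0.55, 0.691, 2.09 and 0.257 FPKM. Each sham mouse was above each nAAC mouse, by a narrow gap for sham replicate 5, and sham replicate 4 was the highest, where Sfrp5 took 23.9% of the summed level of the secreted modulators described below. The means were 0.162 ± 0.0618 and 0.904 ± 0.708 FPKM (SD, n = 5 each), 5.59 times higher in sham. The difference on the log2(FPKM + 1) scale was -0.64, and the exact permutation test, two-sided, gave p = 0.0079, the smallest it can give for 5 against 5. That p is for 1 gene and unadjusted, and in limma without a filter on low values, adjusted over all genes, Sfrp5 did not pass (adjusted p = 0.0649). Without sham replicate 4 the difference was -0.45.

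Among the other secreted modulators, Dkk3 (ENSMUSG00000030772, chr7:112116017-112159057, minus strand) had the highest level of the 10 genes in nAAC. Dkk3 was 15.0, 17.5, 23.5, 22.2 and 12.3 FPKM in nAAC and 4.67, 1.55, 1.46, 1.32 and 2.69 FPKM in sham. The groups did not overlap, with sham replicate 1 the highest of the controls. The means were 18.1 ± 4.73 and 2.34 ± 1.41 FPKM (SD, n = 5 each), 7.73 times higher in nAAC, with a log2 FC of 2.57 (SE 0.25, limma adjusted p = 7.67e-06).

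Wif1 (ENSMUSG00000020218, chr10:121033960-121100650, plus strand), which binds Wnts directly, moved the other way. Wif1 was listed at 0 in nAAC replicate 1 and was 0.613, 0.313, 1.14 and 0.399 FPKM in nAAC replicates 2 to 5. In sham it was 2.62, 1.19, 1.35, 1.57 and 1.26 FPKM, with a mean of 1.60 ± 0.586 (SD, n = 5). The groups did not overlap, but nAAC replicate 4 and sham replicate 2 were close. The log2 FC was -0.82 (SE 0.20, limma adjusted p = 6.79e-03). With Xist as a covariate the log2 FC was -0.71 and Wif1 no longer passed (limma adjusted p = 0.0625). The part of sex in this difference was not tested further.

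The mix of secreted modulators therefore differed between the groups. The summed FPKM of Sfrp1, Sfrp2, Sfrp5, Frzb, Dkk3 and Wif1, a quantity per transcript length, was 34.7 to 56.7 in nAAC (median 42.1) and 8.19 to 13.9 in sham (median 8.75). Dkk3 made up 35.5 to 47.4% of that sum in nAAC and 15.1 to 33.6% in sham, and Sfrp2 made up 18.7 to 23.7% and 9.38 to 12.0%. The share of Sfrp1 was smaller in nAAC, at 10.5 to 16.1% against 19.6 to 31.1%, although its level was higher. Wif1 went from 14.1 to 18.8% of the sum in sham to at most 2.02% in nAAC, and Sfrp5 from 2.86 to 23.9% to at most 0.574%. The share of Frzb overlapped between the groups, at 17.5 to 31.5% in nAAC and 8.41 to 19.2% in sham. Within each mouse, the ratio of Sfrp2 to Sfrp1 was 1.16 to 2.25 in nAAC and 0.301 to 0.583 in sham, with no overlap. The FPKM of Sfrp2 was 1.56 to 1.57 times what its coverage and the depth give, nearly the same in each library, so the ratio differed between the groups in either unit, but which of the 2 genes was higher in nAAC did not follow from it: depth-scaled coverage averaged 5.93 for Sfrp2 and 5.79 for Sfrp1.

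**Figure D2:**
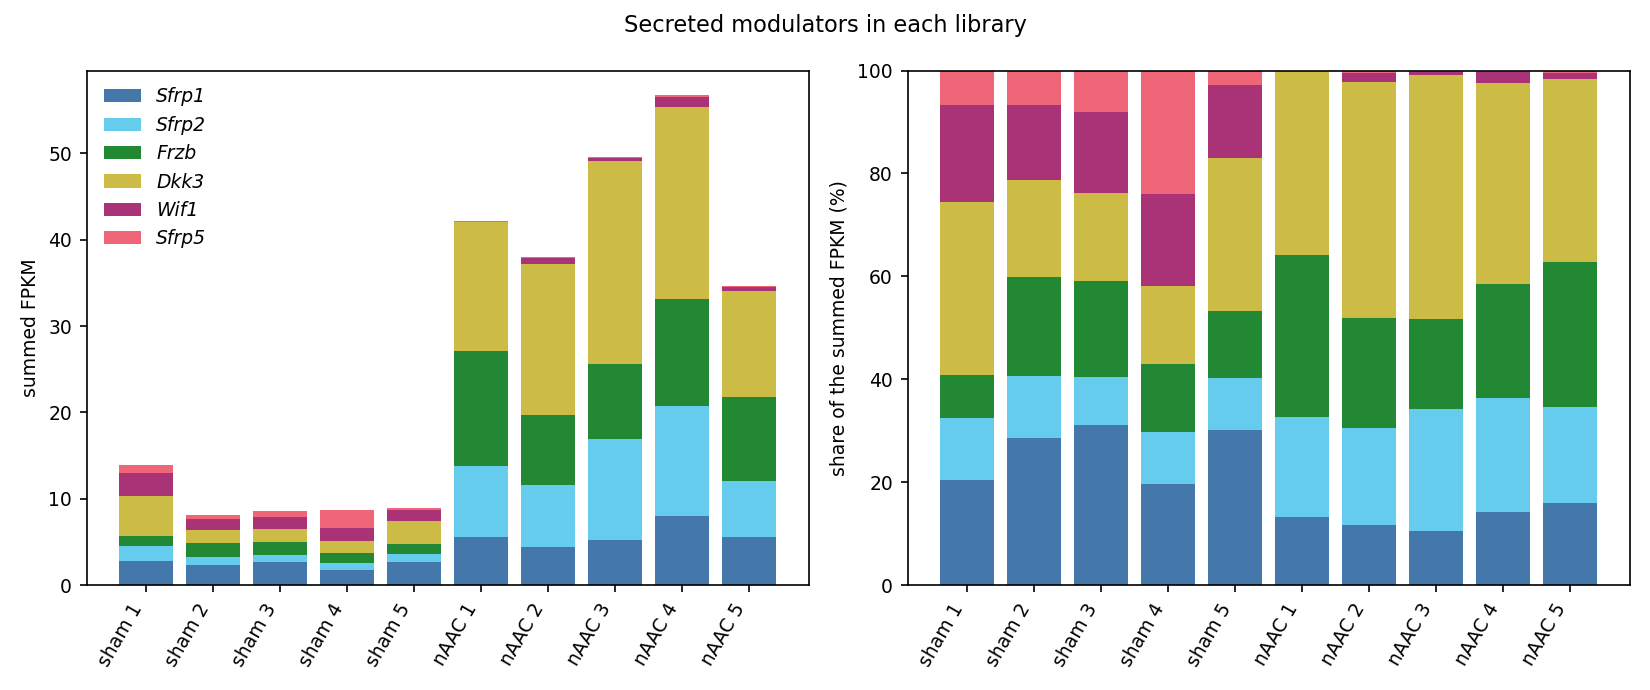
Summed FPKM of the 6 secreted modulators in each library and the percent of that sum taken by each gene. Each bar is 1 mouse. The nAAC bars reach 34.7 to 56.7 FPKM and are mostly Dkk3, Frzb and Sfrp2, while the sham bars reach at most 13.9 FPKM and hold larger shares of Sfrp1, Wif1 and Sfrp5.

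Of the 3 ligands, Wnt5b alone passed the test. Wnt5b (ENSMUSG00000030170, chr6:119432531-119544347, minus strand) was 2.10, 2.18, 2.62, 2.59 and 3.06 FPKM in nAAC and 0.901, 0.896, 0.692, 1.25 and 1.20 FPKM in sham. The groups did not overlap. The means were 2.51 ± 0.387 and 0.987 ± 0.233 FPKM (SD, n = 5 each), 2.54 times higher in nAAC, with a log2 FC of 0.82 (SE 0.12, limma adjusted p = 1.98e-04). The deposited FPKM of Wnt5b was 33.5 to 34.5 times what its coverage and the depth give, so its level cannot be set against that of other genes with confidence. The depth-scaled coverage was 0.0735 ± 0.0116 in nAAC and 0.0293 ± 0.00686 in sham (SD, n = 5 each). Fbxl14, on the opposite strand within the span of Wnt5b, was 5.51 FPKM in nAAC and 4.01 in sham on average. Whether strand was used in the counting is not given in the sources used here, so reads of the 2 genes may not have been kept apart.

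Wnt5a (ENSMUSG00000021994, chr14:28504750-28527448, plus strand), the closest paralog of Wnt5b, was 1.40, 1.30, 1.29, 1.61 and 1.58 FPKM in nAAC. The controls had 1.30, 1.09, 1.33, 1.14 and 1.46 FPKM. The groups overlapped. The means were 1.44 ± 0.152 and 1.26 ± 0.152 FPKM (SD, n = 5 each). The log2 FC of 0.11 (SE 0.097, limma adjusted p = 0.417) was below the shift of the median gene and turned negative with median-ratio scaling (-0.055). By depth-scaled coverage Wnt5a averaged 1.12 in nAAC, where Wnt5b averaged 0.0735, so no order of the 2 ligands is given.

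Wnt11 (ENSMUSG00000015957, chr7:98835112-98855195, plus strand), a noncanonical ligand of heart development, was 4.29, 1.94, 2.21, 2.74 and 1.65 FPKM in nAAC. In sham it was 1.71, 0.805, 0.298, 5.34 and 2.26 FPKM. The groups overlapped, and both the highest and the lowest of the 10 values were sham libraries. The means were 2.57 ± 1.04 and 2.08 ± 1.97 FPKM (SD, n = 5 each) at a log2 FC of 0.38 (SE 0.35, limma adjusted p = 0.413). Sham replicate 4, the library that stood apart, held the highest value, and without it the log2 FC was 0.70 (limma adjusted p = 0.0556). It was 0.13 without sham replicate 3, 0.23 without nAAC replicate 1 and 0.24 without sham replicate 2, and Wnt11 passed in none of these. Its FPKM was 1.75 to 4.81 times what its coverage and the depth give, a ratio that varied between libraries.

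Axin2 (ENSMUSG00000000142, chr11:108920349-108950783, plus strand), which promotes beta-catenin degradation and is induced by canonical signaling, was 1.21, 1.03, 1.30, 1.13 and 1.43 FPKM in nAAC. Sham mice had 1.28, 0.585, 0.806, 0.527 and 0.897 FPKM. The groups overlapped through sham replicate 1. The means were 1.22 ± 0.156 and 0.818 ± 0.298 FPKM (SD, n = 5 each). The log2 FC of 0.30 (SE 0.12) did not pass the test (limma adjusted p = 0.0791). It passed without sham replicate 1, at a log2 FC of 0.38 (limma adjusted p = 0.0283), with TPM in place of FPKM, at 0.47 (limma adjusted p = 0.0319), and with depth-scaled coverage, at 0.19 (limma adjusted p = 0.0105), where the groups did not overlap (nAAC at least 0.542, sham at most 0.499). Once the trends of each library on GC content and length were removed, it was -0.061.

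**Figure D3:**
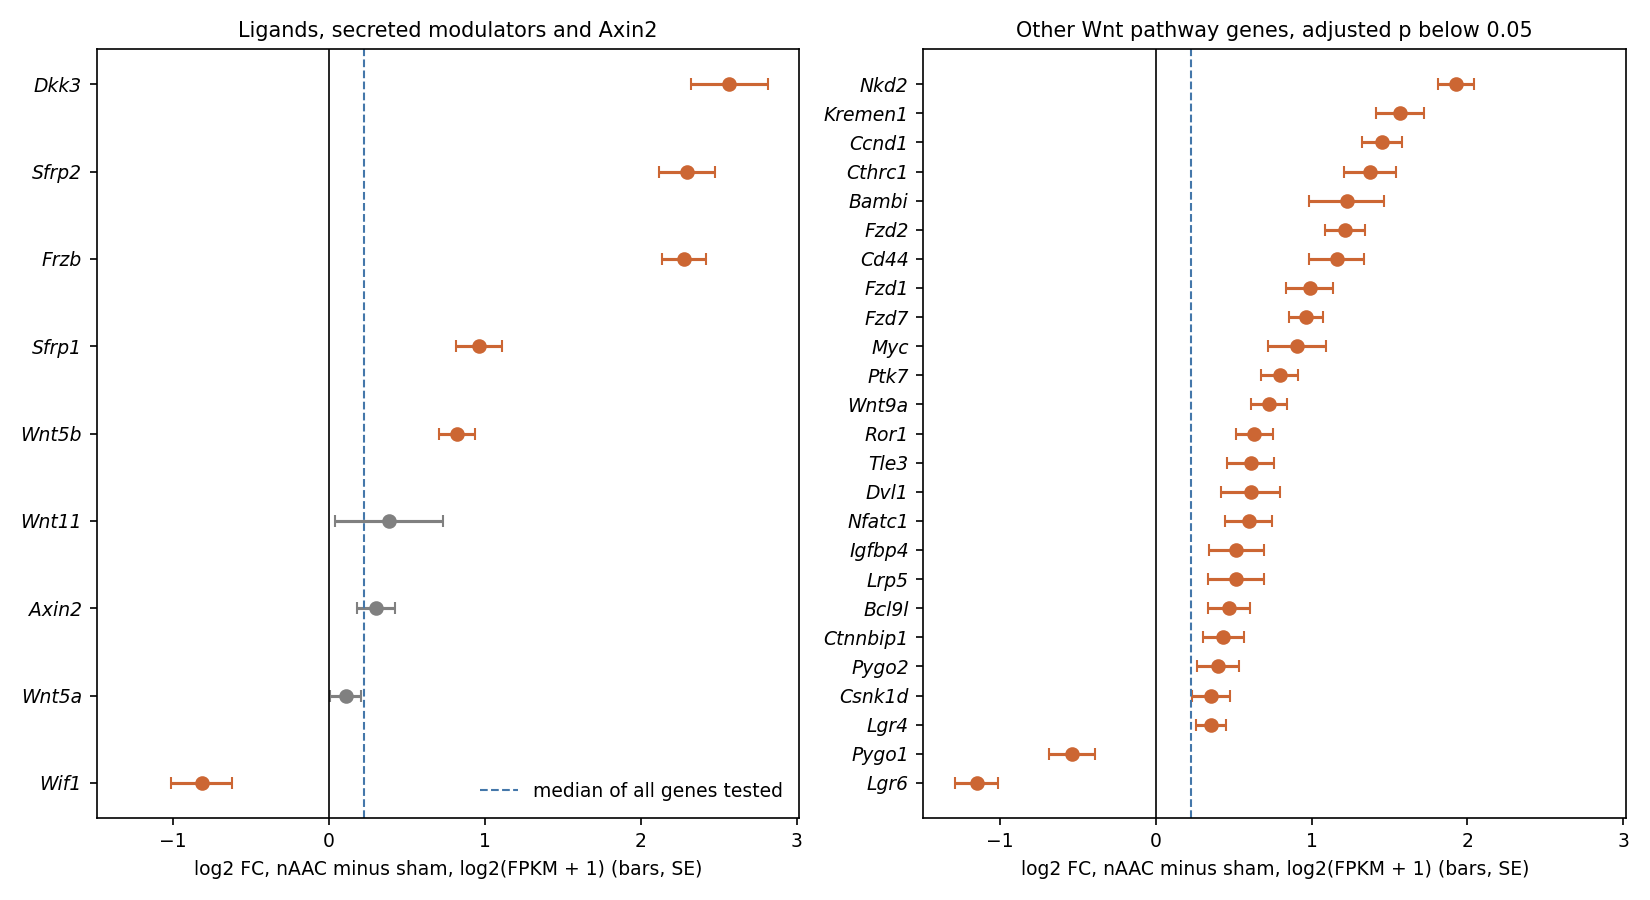
Log2 FC (nAAC minus sham, log2(FPKM + 1) scale) of the 9 genes tested (left) and of the 25 other Wnt pathway genes that passed (right), with SE as bars and a dashed line at the median of all genes tested, 0.22. Grey points did not pass. Sfrp2, Frzb and Dkk3 lie beyond 1 and Wif1 lies below 0 on the left, and Lgr6 and Pygo1 lie below 0 on the right.

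By mean FPKM, the order in nAAC was Dkk3, Frzb, Sfrp2, Sfrp1, Wnt11, Wnt5b, Wnt5a, Axin2, Wif1 and Sfrp5. Among neighbours in that order, the ranges over mice were separate only between Sfrp1 and Wnt11, and between Wnt5b and Wnt5a in FPKM alone. In sham the order was Sfrp1, Dkk3, Wnt11, Wif1, Frzb, Wnt5a, Sfrp2, Wnt5b, Sfrp5 and Axin2, and the ranges of all neighbours overlapped. Wnt5b and Wnt11 hold their places with the FPKM values described above, which were higher than their coverage gives. By depth-scaled coverage Wnt5b was the lowest of the 10 genes in both groups.

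Beyond these 10 genes, 110 other genes of the Wnt pathway were listed by role, of which 62 were tested. In nAAC 23 of the 62 rose (37.1%, beside 27.1% of all genes tested) and 2 fell (3.23%, beside 4.6%), with a median log2 FC of 0.30 beside 0.22 over all genes tested. The count that rose depended on scaling: it was 13 with median-ratio scaling and 14 with Xist as a covariate. Over all genes tested, the number passing in either direction also went down, from 3757 to 2994 and 1983 in these 2 settings. The upward part of these totals is not given here for the 2 settings. The 13 and 14 therefore have no matching share of all genes beside them. With median-ratio scaling, the DEGs among all genes tested went from 595 higher and 106 lower to 371 higher and 206 lower. Of the genes named below, 13 that rose (Wnt9a, Cthrc1, Fzd1, Fzd2, Fzd7, Ror1, Ptk7, Kremen1, Nkd2, Ccnd1, Myc, Cd44 and Bambi) and Lgr6, which fell, passed in the main test and in all 19 alternatives. The share of all genes tested that did so was not counted, so whether the Wnt list differs from it is not known. Cthrc1, Nkd2, Ptk7 and Myc had sham means under 1 FPKM and reached the filter through nAAC alone.

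Among the other ligands, Wnt9a, a canonical ligand known from endothelium and joints, was the one of 16 that reached the filter. Wnt9a averaged 2.82 FPKM in nAAC and 1.33 in sham, with a log2 FC of 0.73 (limma adjusted p = 4.44e-04). Wnt3, Wnt3a and Wnt8a were listed at 0 in all 10 libraries. Porcn and Wls, which modify and transport Wnt ligands, did not pass.

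Of 15 other secreted modulators, 2 were tested and both rose, where 27.1% of all genes tested passed upward. Cthrc1, a collagen triple helix protein of activated fibroblasts that favors noncanonical signaling, averaged 2.06 FPKM in nAAC and 0.156 in sham (log2 FC 1.37, limma adjusted p = 5.35e-05). Igfbp4, an insulin-like growth factor binding protein that can also antagonize canonical Wnt signaling, averaged 18.9 and 12.9 FPKM (log2 FC 0.52) and did not pass in all alternatives. Sfrp4 lay under the filter, at 0.166 FPKM in nAAC and 0.0224 in sham, with no overlap of the groups. Dkk1 and Dkk4 were listed at 0 in all libraries.

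Of 27 genes for receptors and their turnover, 16 were tested. In nAAC 8 rose (50%, beside 27.1% of all genes tested) and 1 fell (6.25%, beside 4.6%). Kremen1, a receptor for dickkopf proteins, averaged 45.7 ± 4.95 FPKM in nAAC and 15.0 ± 3.70 in sham (SD, n = 5 each), with a log2 FC of 1.57 (limma adjusted p = 9.62e-06). The frizzled receptors Fzd2, Fzd1 and Fzd7 rose by log2 FC of 1.22, 0.99 and 0.97. The noncanonical receptors Ptk7 and Ror1 rose by 0.80 and 0.63, while the canonical co-receptor Lrp5 (0.51) and Lgr4, a receptor for R-spondins (0.35), rose in the main test but not in all alternatives. Lgr6, another R-spondin receptor, was the 1 that fell: it averaged 2.85 ± 0.547 FPKM in nAAC and 7.56 ± 1.35 in sham (SD, n = 5 each), with a log2 FC of -1.15 (limma adjusted p = 5.04e-05).

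In the list of commonly used beta-catenin targets, 6 of 9 genes were tested and 5 rose (83.3%, beside 27.1% of all genes tested). The median log2 FC was 1.19, beside 0.22 over all genes tested. Nkd2 and Myc reached the filter through nAAC alone, which raises this share and median. Nkd2, a Dishevelled-binding inhibitor of the pathway, averaged 3.83 ± 0.691 FPKM in nAAC and 0.260 ± 0.0870 in sham (SD, n = 5 each; log2 FC 1.93, limma adjusted p = 2.08e-07). Ccnd1 (cyclin D1) had a log2 FC of 1.45, Bambi, a TGF-beta pseudoreceptor, 1.23, Cd44, a hyaluronan receptor, 1.16, and Myc 0.91. Ccnd1, Cd44 and Myc are also induced by other pathways. Of the other genes in the list, Tbx3 was tested and did not pass (log2 FC 0.00057). Nkd1 (0.834 FPKM in nAAC and 0.480 in sham), Ccn4 (1.22 and 0.725) and Sp5 (0.0102 and 0) lay under the filter and were not tested. Axin2, described above, did not pass. Lef1, counted with the cytoplasmic and nuclear components, lay under the filter (0.0922 FPKM in nAAC and 0.0268 in sham). Neither Axin2 nor Lef1 is in this list of 9.

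Of 27 cytoplasmic and nuclear components, 25 were tested, 6 rose (24%) and 1 fell (4%), shares near those of all genes tested (27.1% and 4.6%). Tle3 (log2 FC 0.61), a corepressor, Dvl1 (0.61), a Dishevelled adaptor, Bcl9l (0.47), a beta-catenin cofactor, Ctnnbip1 (0.43), a beta-catenin inhibitor, Pygo2 (0.40), a nuclear cofactor, and Csnk1d (0.36), a casein kinase, passed in the main test but not in all alternatives. Pygo1, a nuclear cofactor of beta-catenin, fell by 0.54 on the log2 scale, and not in all alternatives. Ctnnb1, which encodes beta-catenin, averaged 115.4 FPKM in nAAC and 93.5 in sham and did not pass (log2 FC 0.30, limma adjusted p = 0.145). Of 14 genes of the polarity branch, 10 were tested and 1 rose (10%, beside 27.1% of all genes tested). This was Nfatc1, a calcium-regulated transcription factor (0.60), though not in all alternatives.

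In bulk LV, fewer cells of a type and less RNA per cell cannot be told apart, and the same holds for more. The cell type markers were therefore read beside the 10 genes. Over all genes tested, 27.1% passed upward and 4.6% downward. All 8 fibroblast markers were tested and 5 rose (Mfap5, Pi16, Tcf21, Lum and Dcn), and their summed FPKM was 966 to 1414 in nAAC and 646 to 913 in sham. Of 5 markers of activated fibroblasts, 4 rose (Postn, Comp, Meox1 and Cthrc1), with a summed FPKM of 134 to 322 in nAAC and 10.3 to 22.3 in sham and a median log2 FC of 2.52. Cthrc1 also stands in the Wnt list above, and Fap did not pass. The 8 ventricular cardiomyocyte markers summed to 14396 to 22821 FPKM in nAAC and 14876 to 29520 in sham, the highest sums of any list, and 2 of them rose and 1 fell. Of the 6 smooth muscle and pericyte markers 3 rose, with sums of 210 to 317 FPKM in nAAC and 165 to 282 in sham. Of 5 endothelial markers 1 rose, with sums of 133 to 244 and 125 to 199 FPKM. None of the tested epicardial (4), leukocyte (5), atrial (4) and valve interstitial (1) markers passed. Their summed FPKM in nAAC and sham ran over 7.00 to 22.4 and 6.38 to 10.6, 78.0 to 165 and 65.9 to 133, 6.14 to 231 and 5.62 to 47.9, and 7.77 to 17.6 and 11.5 to 18.3. The atrial markers were uneven within nAAC. Myl7 and Myl4 were 79.8 and 128 FPKM in replicate 3 and 54.0 and 71.1 in replicate 2. Both were at most 1.61 in replicates 1 and 5. The valve markers Hapln1 and Cldn11 were below 1 FPKM in all libraries. The part that these cell types had in the changes of the Wnt genes was not tested.

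Set against the mean log2 level of the 8 fibroblast markers in the same library, Sfrp2, Frzb and Dkk3 remained higher in nAAC, by 1.37, 1.35 and 1.64 on the log2 scale. Sfrp5 and Wif1 were lower by this measure, at -1.58 and -1.75. Wnt5a (-0.83) and Axin2 (-0.63) were also lower relative to these markers. For each of these 7 genes the exact permutation test gave p = 0.0079, the smallest it can give, over 10 such unadjusted tests. The markers themselves rose, with a median log2 FC of 0.57 beside 0.22 over all genes tested. The measure subtracts their mean, which Mfap5 (log2 FC 2.49) and Pi16 (1.97) pulled above this median. A gene with little change, such as Wnt5a (log2 FC 0.11) or Axin2 (0.30), therefore comes out lower by this measure. The share of all genes tested that does so was not counted. Sfrp1 (0.03, exact p = 0.825), Wnt5b (-0.11, exact p = 0.389) and Wnt11 (-0.55, exact p = 0.238) did not differ beyond the spread between mice. Mfap5 and Pi16 rose most among the markers, and without them Sfrp1 was higher by 0.46 (exact p = 0.0159), Wnt5b by 0.32 (exact p = 0.0317), and Axin2 no longer differed (-0.20, exact p = 0.222). Wnt5a was then lower by a smaller amount (-0.39, exact p = 0.0079). Axin2 also lost its difference with a pseudocount of 0.1 (-0.40, exact p = 0.111). With that pseudocount Wnt5b changed sign, to 0.31 (exact p = 0.111), and Sfrp1 was 0.22 (exact p = 0.246). Sfrp1, Wnt5b and Axin2 thus depended on the markers chosen and on the pseudocount, and Wnt5a on the markers in its size.

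**Figure D4:**
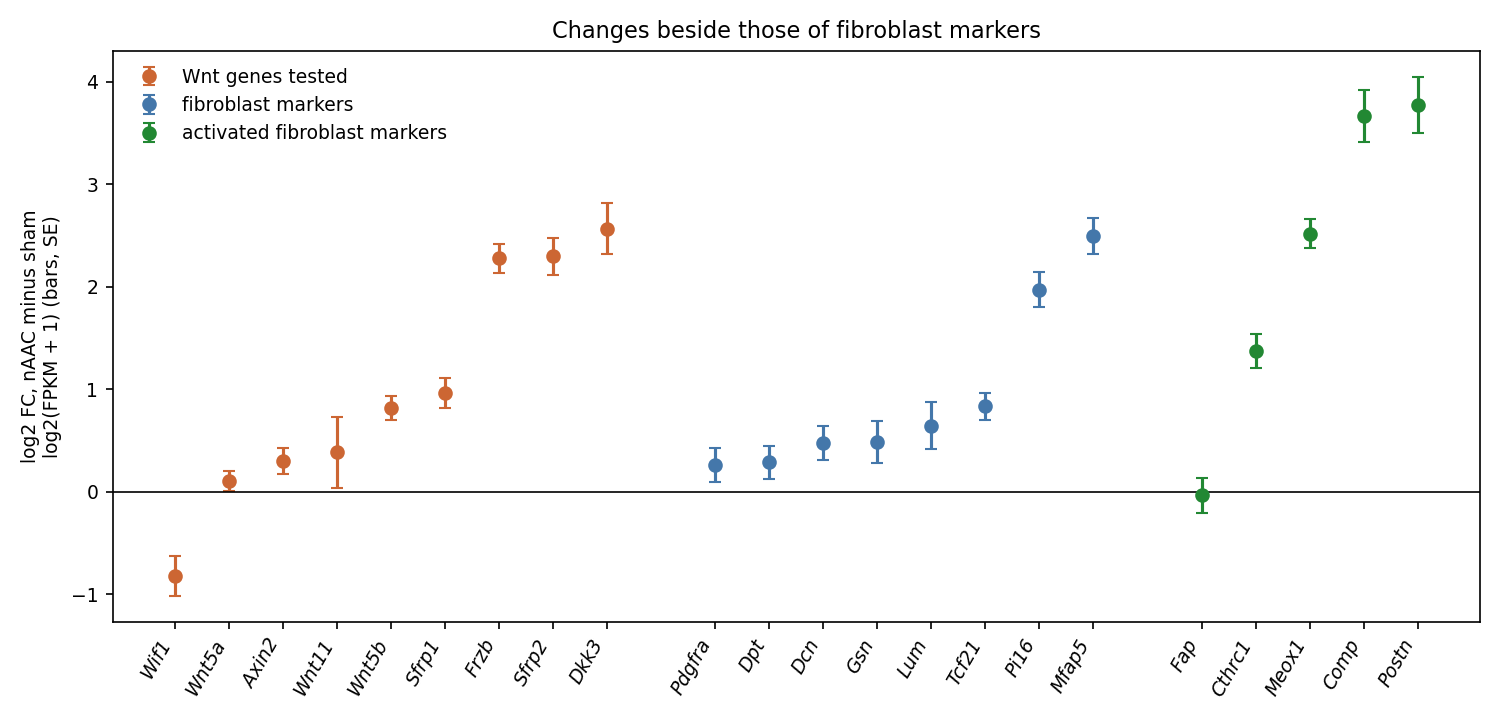
Log2 FC (nAAC minus sham) of the Wnt genes tested and of the fibroblast and activated fibroblast markers, with SE as bars and 1 point per gene. Sfrp2, Frzb and Dkk3 lie above at least 6 of the 8 fibroblast markers and among the activated fibroblast markers, Wif1 lies below all of them, and the markers Pdgfra, Dpt, Gsn and Fap did not pass the test.

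Within the groups, the Wnt genes varied between mice in different ways. After centring each group on its own mean, the highest correlation of log2 values between 2 of the genes tested was 0.80, for Sfrp2 and Dkk3 over the 10 libraries, followed by 0.73 for Sfrp1 and Wnt5a, and the lowest was -0.36 for Frzb and Wnt5b. These values are descriptions over libraries that share depth and composition effects. By the same measure, the tested gene most like each was Sertad4 for Sfrp1 (0.94), Ntsr2 for Sfrp2 (0.91), Tgfbr1 for Frzb (0.97), Mfsd4b1 for Dkk3 (0.93), Rph3al for Wif1 (0.90), Agap2 for Wnt5a (0.96), Rps4l for Wnt5b (0.97), Eno1b for Wnt11 (0.99) and Eng for Axin2 (0.88). The list was unstable: of 27 names, 3 for each of the 9 genes, 12 were shared with median-ratio scaling and 3 once GC content and length trends were removed.

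**Figure D5:**
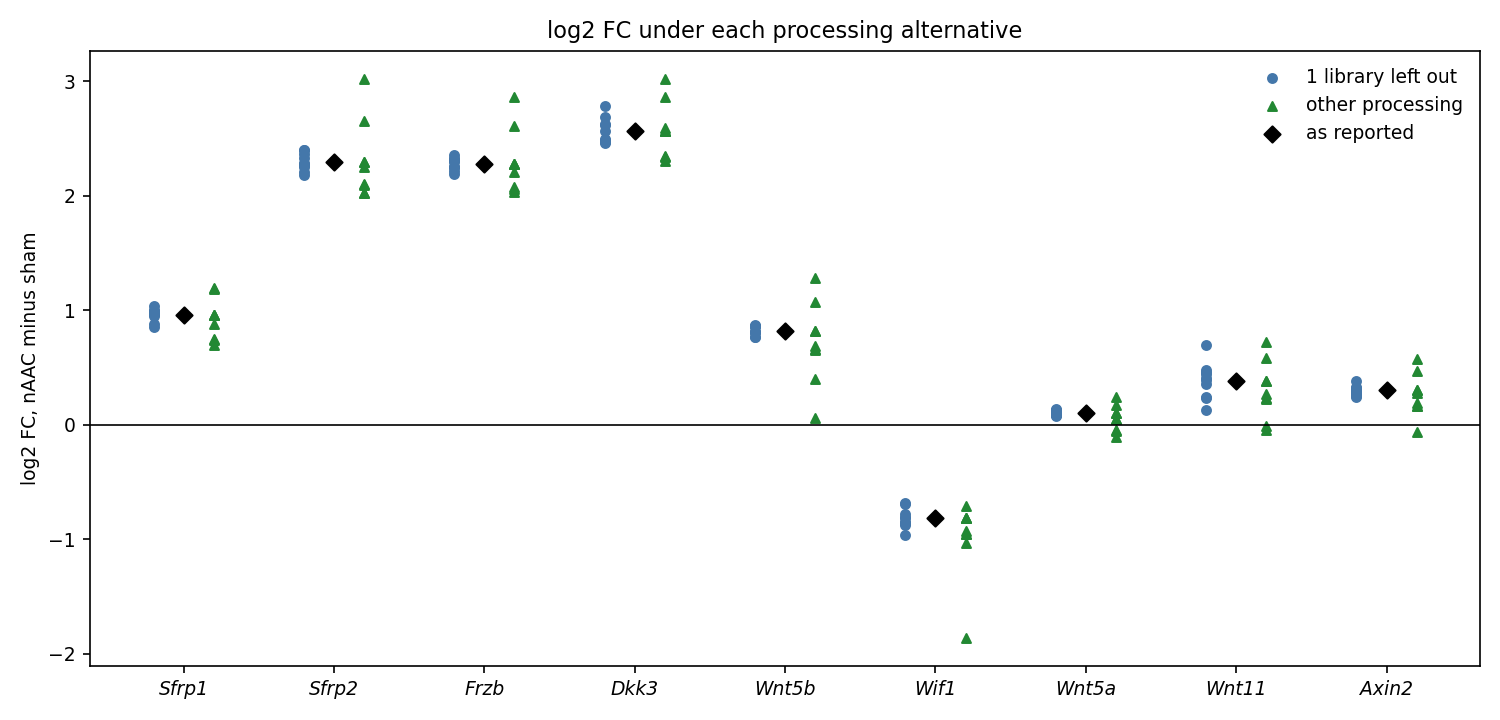
Log2 FC (nAAC minus sham) of the genes tested under the main setting and each alternative, 1 point per setting: circles leave out 1 library, triangles are the other alternatives and diamonds the reported value. The points of Sfrp1, Sfrp2, Frzb, Dkk3 and Wnt5b stay above 0 and those of Wif1 below 0 under all 19 alternatives, while those of Wnt5a, Wnt11 and Axin2 cross 0.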

How the data were processed

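LV tissue of 5 nAAC and 5 sham mice was sequenced as total RNA extracted with Trizol and prepared with a NEBNext Ultra kit, with 1 library per mouse. Groups came from the sample labels. The authors deposited 1 gene table per mouse, on mm10. Each holds coverage (mean reads per base), FPKM (a level normalized by the authors for depth) and TPM (FPKM rescaled by the authors to a common sum). The aligner, the quantification tool and the strand setting are not given in the sources used here. Coordinates equalled those of GENCODE M21 for 99.42% of 55141 shared genes. The 7 to 12 rows per table that repeat a gene identifier were summed with its first row. The modal FPKM-to-coverage ratio of a library gave its depth. Of the genes above 1 FPKM, 15.0 to 16.5% per library lay at this ratio, so a departure from it is common. FPKM keep no read counts, so no counting interval is given, and the number of mice limits the precision.

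Genes with a mean of at least 1 FPKM over the 10 libraries (11867) were tested with limma 3.58.1 in R 4.3.3 (lmFit, eBayes with trend) on log2(FPKM + 1), with Benjamini-Hochberg adjustment. Fold changes on this scale understate the change of low genes. Single values were compared with the two-sided exact permutation test over mice. The script was tested on simulated data. Named genes were the 10 members, each gene of the other Wnt list that passed, Ctnnb1, Sfrp4, the other ligand with the highest mean, and the genes most alike in profile. Lef1, Nkd1, Tbx3, Ccn4, Sp5, Porcn, Wls and the genes listed at 0 were named in addition after their values were seen. The members and lists were chosen with earlier results of these data known. The alternatives tried were scaling by median ratios or by the upper quartile, TPM, no filter, a pseudocount of 0.1, a replicate block, Xist as a covariate, removal of GC and length trends (99.9% of tested genes had both), a stricter adjusted p of 0.01 and each mouse left out; depth-scaled coverage and a fibroblast list without Mfap5 and Pi16 were added after seeing the data. Labels do not say that libraries are from separate litters, so p-values measure the spread between these mice. A further marker list is not reported here.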

Additional observations from a re-analysis of the deposited data

Results flagged for a closer look

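Sfrp2 in sham was flagged because 1 library lay far from the others: replicate 1 was 1.67 FPKM and the next highest 0.982 FPKM, a gap of 0.758 of the range of the group, above Dixon's critical value of 0.71 for 5 samples. Among the 20 groups examined, chance gives about 1 such flag. The lowest nAAC value, 6.47 FPKM, was still above this library.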

How the results depend on the processing

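Sfrp1, Sfrp2, Frzb, Dkk3 and Wnt5b passed upward under all 19 alternatives, and Wif1 passed downward under 18, the exception being Xist as a covariate. The share of all genes tested that passed under every alternative was not counted. The number of the 10 genes called DEGs was 3, and 5 with TPM and 6 with a pseudocount of 0.1; with each mouse left out in turn it was 3 to 4, and the number passing the adjusted p was 6 to 7. Other Wnt genes that rose numbered 23, and 13 with median-ratio scaling, 13 with upper-quartile scaling, 35 with TPM, 14 with Xist as a covariate, 13 once GC and length trends were removed and 17 to 27 with each mouse left out. Those that fell numbered 2, and 1 with Xist, 7 once the trends were removed (among them Gsk3a, Csnk1e, Bcl9, Tle2 and Tle4, named after their values were seen) and 2 to 3 with each mouse left out. Over all genes tested, 3757 passed in either direction in the main test. That number was 2994 with median-ratio scaling, 2979 with upper-quartile scaling, 5317 with TPM, 1983 with Xist and 3540 once the trends were removed. Its upward and downward parts are not given here for the alternatives. The counts of Wnt genes that rose or fell under them therefore have no matching share of all genes. The log2 FC reversed for Wnt5a with median-ratio (-0.055) and upper-quartile scaling (-0.048) and once the trends were removed (-0.11), for Wnt11 with Xist (-0.045) and the trends removed (-0.0071), and, with the trends removed, for Axin2 (-0.061), Bcl9l (-0.00095) and Pygo2 (-0.013). The log2 FC of Wnt5b was 0.40 once the trends were removed. With depth-scaled coverage it was 0.061, since a pseudocount of 1 was added to values of 0.0735 and 0.0293. Of 27 genes alike in profile, 12 were shared with median-ratio scaling, 11 with upper-quartile scaling, 17 with a pseudocount of 0.1, 3 with the trends removed, 11 with depth-scaled coverage and 8 to 14 with each mouse left out. The cause of these differences was not tested. Of the 10 genes set against fibroblast markers, 7 differed, and 8 without Mfap5 and Pi16, 6 with a pseudocount of 0.1 and 9 with depth-scaled coverage. With the replicate number as a block, 6 of the 10 genes passed and 3 were DEGs, as without it, and 22 other genes rose; the deviations of same-numbered libraries correlated at 0.19, -0.095, -0.32, -0.033 and 0.041, so the numbers were not read as a pairing. Among the 10 genes, the lowest mean FPKM over all libraries were those of Sfrp5 (0.533 FPKM), Axin2 (1.02) and Wif1 (1.05). The least coverage was that of Wnt5b, at a depth-scaled mean of 0.0735 in nAAC and 0.0293 in sham, so its difference rests on few reads.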
